A study of Schizosaccharomyces pombe with 4 samples.

Results

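The genes cdc2, cdc13, cdc25, wee1, cdr1, cdr2 and pom1 of fission yeast (Schizosaccharomyces pombe) form the core of the circuit that couples cell growth to entry into mitosis. All 7 were found by symbol among the 5129 gene models of the deposited table, and all 7 had a mean of at least 1 FPKM (fragments per kilobase of gene, scaled to the size of the library), as did 4761 genes in total. Total RNA was sequenced from untreated, exponentially growing cells of 4 genotypes, namely wild type (labelled WT) and the sfp1 knockout, the ifh1 knockout and the fhl1 knockout. The labels name no further allele, marker or strain background. Each genotype was 1 sample, given as 1 FPKM value per gene between a lower and an upper bound, so no spread between cultures could be computed and no difference was tested. The series title links Sfp1 to TORC1, the growth-controlling kinase complex, and to ribosome production; sfp1, ifh1 and fhl1 encode regulators of transcription.

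Mitosis in fission yeast is started by the cyclin-dependent kinase Cdc2 bound to its B-type cyclin Cdc13. The kinase Wee1 holds this complex inactive by phosphorylating a tyrosine near the start of Cdc2, and the phosphatase Cdc25 removes that phosphate. Cdr2 forms cortical nodes in the cell middle that recruit Wee1, Cdr1 (also called Nim1) phosphorylates and inhibits Wee1, and Pom1, a kinase enriched at the cell ends, inhibits Cdr2. Loss of Wee1 activity makes cells divide small, and loss of Cdc25, Cdr1 or Cdr2 function delays division to a larger size.

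The sites on which this circuit turns are shown as coding-strand DNA from the RefSeq genome ASM294v3, since the values are read from these genes. The capitals mark codon 15 of cdc2, the tyrosine that Wee1 phosphorylates and Cdc25 dephosphorylates (chrII:1500447-1500476, plus strand), and codon 480 of cdc25, the catalytic cysteine of the phosphatase (chrI:480080-480109, minus strand).
cdc2: accTATggcgttgtttataaagcaagacat
cdc25: tttcatTGTgaacatagtgcgcacagagca
The 5 protein kinases share the catalytic loop of the kinase fold, in which the capitals mark the codon of the catalytic aspartate.
cdc2: catcgcGATttaaaaccacaaaat
wee1: catttgGATttaaagcctgctaat
cdr1: catcggGATttaaaacttgagaat
cdr2: caccggGATttaaagccagagaac
pom1: cattgtGATttgaaacccgaaaat
Over the 10 pairs of kinase genes these 24 bases were identical at 16 to 19 positions. The highest, 19, was found for cdc2 and cdr1, for cdc2 and pom1, and for cdr1 and cdr2. Each loop was picked by a pattern that fixes several of its amino acids, so part of this identity was set by the selection. The loops lie at chrII:1500873-1500896 (plus strand), chrIII:724304-724327 (plus), chrI:2681148-2681171 (minus), chrI:1365236-1365259 (plus) and chrI:535236-535259 (minus), in the order printed. The pattern used to find the loop by translation occurred in 88 of 5145 annotated coding sequences (1.71%), and that for the cysteine site in 64 (1.24%). A match to either pattern is a description of the coding sequence only.

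The members are spread over all 3 nuclear chromosomes. On chromosome I lie cdc25 (SPAC24H6.05, 479750 to 481540), pom1 (SPAC2F7.03c, 534462 to 537725), cdr2 (SPAC57A10.02, 1364846 to 1367173) and cdr1 (SPAC644.06c, 2679765 to 2681546). Chromosome II holds cdc13 (SPBC582.03, 421123 to 422571) and cdc2 (SPBC11B10.09, 1500340 to 1501528), and chromosome III holds wee1 (SPCC18B5.03, 722234 to 724867). These are coding spans, with starts made 1-based, and each equals the annotated coding boundaries in ASM294v3. The coding sequence of cdc2 is split into 5 exons, and each of the other 6 genes has 1 coding exon. Annotated antisense long noncoding RNAs overlap the coding spans of cdc2 (459 bp), cdr1 (282 bp), pom1 (1280 bp) and cdr2 (1948 and 252 bp). The libraries were directional per the labels, but whether counting used strand is not stated there. Reads of the antisense partners may therefore be part of the FPKM values of these 4 genes.

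As a check of the labels, each deleted gene stood at no more than 0.556 FPKM in its own knockout and at 45.1 to 270.3 FPKM in the other 3 genotypes. Median-of-ratios size factors lay between 0.989 and 1.02, so the values were compared as deposited. Of the 18895 bounds in the table that were under 300 steps, 99.4% came out whole to a tolerance of 0.05 steps, and a step can be read as 1 fragment if a single scale is assumed for the 4 libraries. On that assumed scale the members' midpoints were between about 281 and 1564 fragments, and the half-widths of the bounds were between 27.6 and 36.7% of the midpoint. No source used here gives the confidence level of the bounds, or states whether they take in any differences between cultures.

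None of the 7 genes differed by 2-fold between any 2 genotypes. The largest difference from wild type was that of cdc2 in the ifh1 knockout, at a log2 ratio of 0.45, and the bounds of every member overlapped between genotypes in all 6 comparisons. The background was small as well: 5.61% of the 4761 tested genes differed at least 2-fold from wild type without sfp1, 4.43% without ifh1 and 3.49% without fhl1. A count of 0 of 7 is therefore near what the whole table gave. Bounds were apart for 2.56, 1.68 and 0.798% of all tested genes, also with 0 members. Between knockouts 2-fold was reached by 4.54% of tested genes for sfp1 against ifh1, 3.11% for sfp1 against fhl1 and 1.81% for ifh1 against fhl1, and bounds were apart for 2.84, 1.39 and 0.399%.

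**Figure D1:**
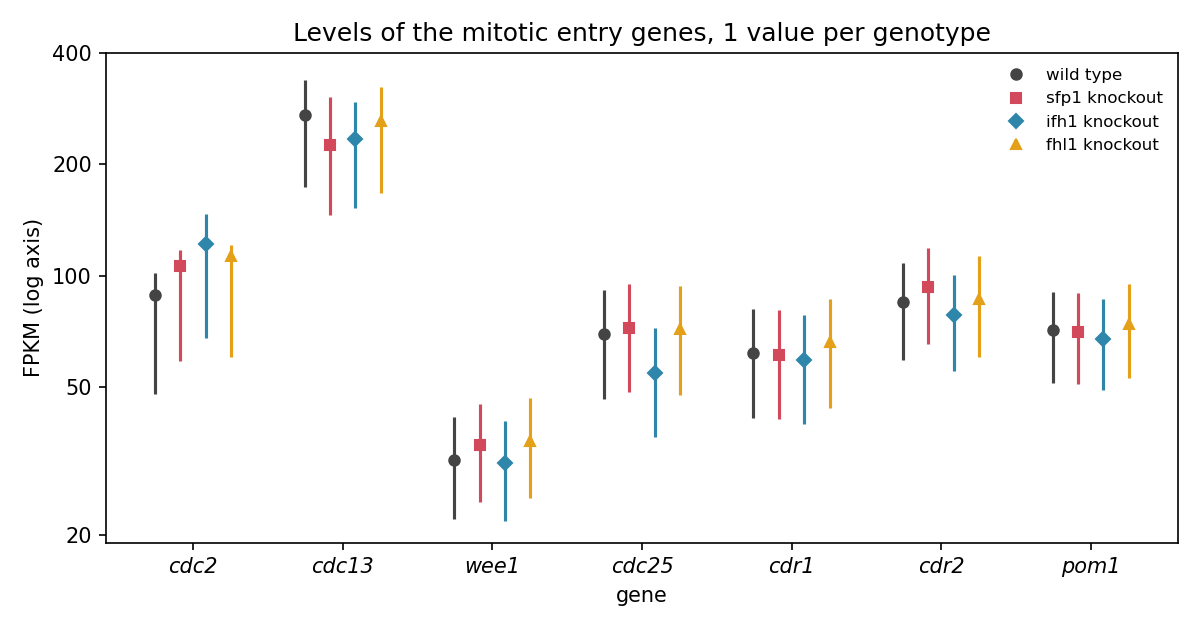
FPKM of the 7 genes (log axis) in each genotype, with points for the deposited values (1 sample per genotype) and vertical lines for the deposited lower and upper bounds. The cyclin gene cdc13 lies between 225.8 and 271.3 FPKM and wee1 between 31.2 and 35.9 FPKM in all 4 genotypes, and the 4 lines of each gene share a common range.

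The kinase and its cyclin stood at the top of the order of levels. The cyclin gene cdc13 was at 271.3 FPKM in wild type, 225.8 without sfp1, 234.7 without ifh1 and 261.7 without fhl1. Wild type was highest and the sfp1 knockout lowest, 1.20-fold apart. The kinase gene cdc2 was at 88.8 FPKM in wild type, 106.5 without sfp1, 121.5 without ifh1 and 112.8 without fhl1. Wild type was thus the lowest and the ifh1 knockout the highest, 1.37-fold apart, the widest span among the 7 genes. Bounds for cdc2 were 47.8 to 101.5 FPKM in wild type and 68.0 to 146.9 FPKM in the ifh1 knockout, and so overlapped.

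The log2 ratios of cdc2 to wild type were 0.26, 0.45 and 0.34 in the knockouts of sfp1, ifh1 and fhl1. All 3 use the same wild-type value, so they are not independent of each other. Of all tested genes, 23.2, 9.26 and 13.5% had a higher log2 ratio in the same comparison. The deposited cdc2 values lay above the midpoints of their bounds, by 1.13-fold in the ifh1 knockout to 1.24-fold in the fhl1 knockout. With midpoints in place of FPKM the log2 ratios of cdc2 were 0.24, 0.52 and 0.28. Between knockouts, cdc2 was at a log2 ratio of −0.19 in the sfp1 against the ifh1 knockout, −0.08 in the sfp1 against the fhl1 knockout and 0.11 in the ifh1 against the fhl1 knockout.

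For cdc13 the log2 ratios to wild type were −0.26, −0.21 and −0.05 in the knockouts of sfp1, ifh1 and fhl1. Cyclin and kinase messages are read here from the same library, so their ratio does not depend on scaling between libraries. There were 3.06 FPKM of cdc13 for each FPKM of cdc2 in wild type, 2.12 without sfp1, 1.93 without ifh1 and 2.32 without fhl1. The ratio was thus lower in each knockout than in wild type, by 0.53, 0.66 and 0.40 on the log2 scale. All 3 differences use the same wild-type ratio, so they are not independent of each other. The ranges that the bounds allow, 1.71 to 7.09 in wild type and 1.04 to 4.34 in the ifh1 knockout, overlap widely. From midpoints of the bounds the ratios were 3.43, 2.55, 2.08 and 2.71, in the same order of genotypes.

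Of the pair that sets the tyrosine phosphorylation of Cdc2, wee1 had the lowest level of the 7 genes and cdc25 lay between the extremes. The gene of the inhibitory kinase, wee1, was at 31.8 FPKM in wild type, 34.9 without sfp1, 31.2 without ifh1 and 35.9 without fhl1. Those values lie within 1.15-fold of each other, with log2 ratios to wild type of 0.13, −0.03 and 0.17. The phosphatase gene cdc25 was at 69.7 FPKM in wild type, 72.3 without sfp1, 54.8 without ifh1 and 71.6 without fhl1. The ifh1 knockout stood apart from the other 3 genotypes, which were close together, but its bounds (36.7 to 72.1 FPKM) overlapped those of wild type (46.5 to 91.6 FPKM).

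In the ifh1 knockout the log2 ratio of cdc25 to wild type was −0.34, and 17.6% of tested genes were lower. Against the fhl1 knockout it was −0.38 and 9.77% of tested genes were lower, and the sfp1 knockout stood 0.39 above the ifh1 knockout. The bounds allow a log2 ratio to wild type between −1.30 and 0.62, a range that holds both 0 and a 2-fold deficit. In the sfp1 and fhl1 knockouts the log2 ratios of cdc25 to wild type were 0.05 and 0.04.

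Within a library, cdc25 was 2.19 times as high as wee1 in wild type, 2.07 times in the sfp1 knockout, 2.0 times in the fhl1 knockout and 1.76 times in the ifh1 knockout. The ifh1 knockout was lowest, 0.32 below wild type on the log2 scale. The bounds allow 1.12 to 4.15 in wild type and 0.907 to 3.31 in the ifh1 knockout, and these ranges overlap. Each range sets the lower bound of one gene against the upper bound of the other, and no difference between ratios was tested.

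**Figure D2:**
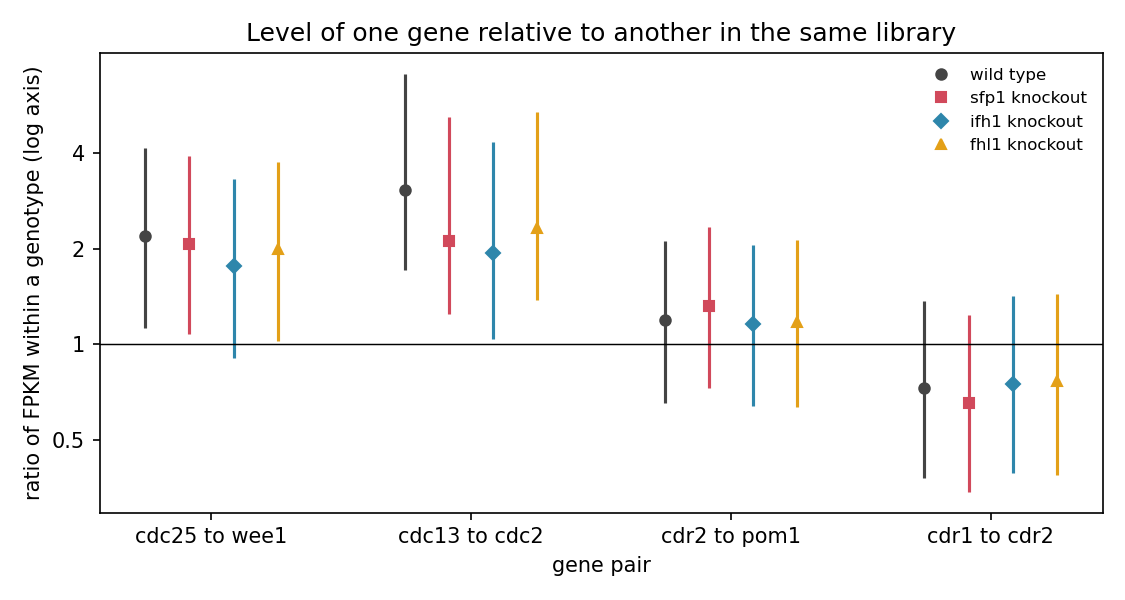
Ratio of the FPKM of one gene to that of another within each genotype (log axis), with points for the deposited values and vertical lines for the range that the deposited bounds of both genes allow. The ratio of cdc25 to wee1 runs from 1.76 to 2.19 and that of cdc13 to cdc2 from 1.93 to 3.06, and the lines of the 4 genotypes overlap for each pair.

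The 3 kinases upstream of Wee1 varied little. The gene of the node organiser, cdr2, was at 84.9 FPKM in wild type, 93.2 without sfp1, 78.6 without ifh1 and 86.6 without fhl1. Its highest and lowest values, in the sfp1 and ifh1 knockouts, were 1.19-fold apart. The gene of the Wee1-inhibiting kinase, cdr1, was at 61.7 FPKM in wild type, 61.0 without sfp1, 59.1 without ifh1 and 66.1 without fhl1, within 1.12-fold. The gene of the cell-end kinase, pom1, was at 71.2 FPKM in wild type, 70.6 without sfp1, 67.7 without ifh1 and 73.9 without fhl1, within 1.09-fold, the narrowest span of the 7.

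Log2 ratios to wild type in the sfp1, ifh1 and fhl1 knockouts were 0.13, −0.11 and 0.03 for cdr2, −0.02, −0.06 and 0.10 for cdr1, and −0.01, −0.07 and 0.05 for pom1. The ratio of cdr2 to pom1, an activator of mitotic entry to its inhibitor, was 1.19 in wild type, 1.32 without sfp1, 1.16 without ifh1 and 1.17 without fhl1. That of cdr1 to cdr2 was 0.727, 0.654, 0.752 and 0.764 in the same order. For these pairs too the ranges allowed by the bounds overlapped between genotypes.

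**Figure D3:**
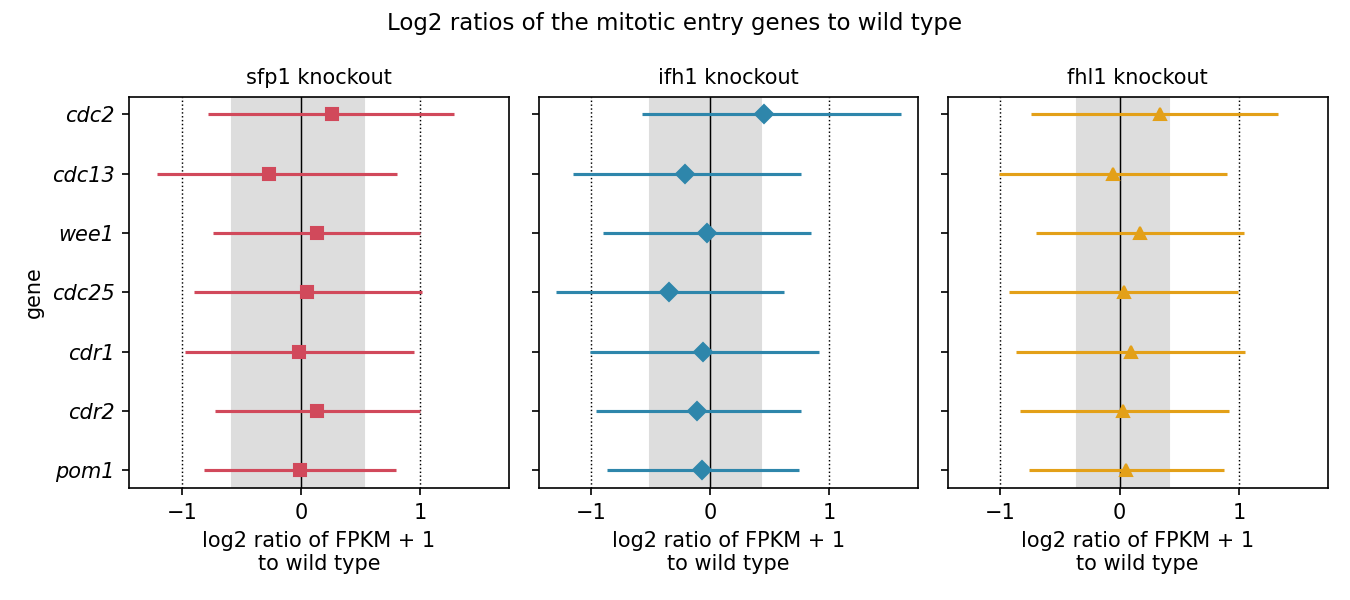
Log2 ratio of FPKM + 1 to wild type for the 7 genes in each knockout, with points for the deposited values, horizontal lines for the range the deposited bounds allow, dotted lines at 2-fold and a grey band from the 10th to the 90th percentile of all tested genes. Every line crosses 0 and no point reaches a dotted line; cdc2 in the ifh1 knockout, at 0.45, is just above the band.

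The order of levels was nearly the same in each genotype. In wild type it ran cdc13, cdc2, cdr2, pom1, cdc25, cdr1, wee1. In every genotype cdc13 was first with bounds clear of the next gene, cdc2 second, then cdr2, and wee1 last. Other neighbours in the order had overlapping bounds and could not be told apart, and the exchanges between genotypes involved pom1, cdc25 and cdr1. With midpoints of the bounds, cdr2 stood above cdc2 in wild type and in the sfp1 knockout. In wild type, 84.3% of tested genes were at a lower FPKM than cdc13, 58.5% than cdc2, 49.2% than cdc25 and 21.4% than wee1.

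Taking all 4 genotypes, the distance from the lowest to the highest log2 value had a median of 0.24 over the 7 genes, against 0.41 over all 4761 tested genes. All tested genes include many that are shorter or scarcer than the members. Over the 2424 tested genes of at least 894 bp and a mean of at least 33.4 FPKM, the shortest length and lowest mean of the members, it was 0.35. Of all 4761 tested genes, not the 2424, 45.2% had a wider range than cdc2, 53.1% than cdc25 and 73.9% than cdc13. For cdr2 the share was 77.5%, for wee1 85.1%, for cdr1 90.7% and for pom1 95.0%.

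The median log2 ratio of the 7 genes to wild type was 0.05 without sfp1, −0.07 without ifh1 and 0.05 without fhl1, against medians over all tested genes of −0.01, −0.01 and 0.02. Members above their wild-type level numbered 4, 1 and 6 of 7, beside 48.5, 47.6 and 52.9% of all tested genes. These counts depended on scaling: with values scaled to the sum of FPKM outside cytosolic ribosomal protein genes they were 6, 6 and 7, of which 5, 1 and 6 lay above the median of all genes under that scaling. With quantile normalization the counts above 0 were 4, 1 and 4, and 4, 1 and 7 lay above the median of all genes. An absolute log2 ratio of 0.3, a limit chosen after the values were seen, was passed by 3 of the 21 ratios to wild type: cdc2 in the ifh1 and fhl1 knockouts and cdc25 in the ifh1 knockout. The limit was passed by 44.2% of tested genes without sfp1, 37.4% without ifh1 and 29% without fhl1.

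The ifh1 knockout held the lowest value of 5 of the 7 genes: cdc25, wee1, cdr1, cdr2 and pom1. Of all tested genes, 31.0% were lowest there. This count depended on scaling. With the scaling outside ribosomal protein genes, 1 member was lowest in the ifh1 knockout, beside 11.3% of all tested genes. Another 5 members were then lowest in wild type, as were 56.7% of all tested genes. That scaling moves the median log2 ratio of all genes to 0.19 (sfp1), 0.28 (ifh1) and 0.15 (fhl1). Measured from there, cdc2 stood at 0.28, 0.47 and 0.32, cdc13 at −0.25, −0.19 and −0.07, and cdc25 at 0.07, −0.33 and 0.02.

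Only cdc2 reached an absolute log2 ratio of 0.4, the limit set for a search for genes with a like pattern. Among 2478 genes of at least 1000 bp and 20 FPKM, the 3 nearest in root mean square distance over the 3 log2 ratios to wild type were csi2, nup97 and mus7, each at a distance of 0.03. The nuclear pore gene nup97, for instance, was at 77.4 FPKM in wild type, 95.1 without sfp1, 103.3 without ifh1 and 97.8 without fhl1. As many as 67 genes lay within 0.1 of cdc2, and 4 libraries that share 1 wild type leave such a likeness weakly defined.

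Other genes of the network were read from 6 lists of 71 different genes, of which 70 were matched and 67 passed the expression minimum. None of the 67 differed 2-fold from wild type in any knockout, and bounds overlapped for every gene of each list. Both counts of 0 stand beside low shares over the whole table, where 5.61, 4.43 and 3.49% of tested genes reached 2-fold and 2.56, 1.68 and 0.798% had bounds apart without sfp1, ifh1 or fhl1. With the scaling outside ribosomal protein genes, plo1 passed 2-fold in the ifh1 knockout. That scaling moves the median log2 ratio of all genes there to 0.28, and measured from it plo1 stood at 0.74. The B-type cyclin gene cig2 and the stress kinase gene sty1 were listed at 0 in all 4 genotypes and could not be compared. They are among 215 of the 5129 gene models listed at 0 in all 4 genotypes, and the reason was not tested. The kinesin gene klp8 was under 0.5 FPKM throughout.

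Partners of the tyrosine switch were 7 genes with median log2 ratios of 0.02, 0.07 and 0.08 in the knockouts of sfp1, ifh1 and fhl1. In each knockout 5 of 7 were above 0, where 48.5, 47.6 and 52.9% of all tested genes were above 0. The 3 counts use the same wild-type value of each gene. With the scaling outside ribosomal protein genes 6, 6 and 7 were above 0, and 5 each time above the shifted median of all genes. The gene of the second inhibitory kinase, mik1, was at 25.6, 26.0, 26.7 and 26.9 FPKM in wild type and without sfp1, ifh1 or fhl1. The phosphatase gene pyp3, whose product shares the task of Cdc25, was at 41.3, 46.8, 61.1 and 60.9 FPKM and stood highest of the list in the ifh1 and fhl1 knockouts (log2 0.56 and 0.55). In the sfp1 knockout the replication checkpoint kinase gene cds1 was highest (log2 0.58). Lowest were the 14-3-3 gene rad24 in the sfp1 and ifh1 knockouts (−0.30 and −0.38) and chk1, a DNA damage checkpoint kinase gene, in the fhl1 knockout (−0.02).

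Other cyclins and Cdk regulators, 8 genes tested, had medians of 0.08, −0.09 and 0.07, or −0.005, −0.089 and −0.055 with quantile normalization. The B-type cyclin gene cig1 was at 94.7 FPKM in wild type and 68.3, 65.4 and 65.9 FPKM in the sfp1, ifh1 and fhl1 knockouts, log2 ratios of −0.47, −0.53 and −0.52. All 3 knockouts were below wild type, which the 3 ratios share. The Cdk-activating kinase gene mcs6 was lowest of the list in the ifh1 knockout, at 48.4 against 83.4 FPKM (−0.77), and suc1, which encodes a Cdk-binding protein, in the sfp1 knockout, at 150.2 against 225.4 FPKM (−0.58). The suc1 gene model is 342 bp long, shorter than any of the 7 members. The highest were csk1, another Cdk-activating kinase gene, in the sfp1 and ifh1 knockouts (0.43 each) and mcs2, the cyclin partner of Mcs6, in the fhl1 knockout (0.31).

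Partners of Cdr2 and Pom1 at the nodes and cell ends lay mostly below wild type: 11, 12 and 11 of 14 genes in the sfp1, ifh1 and fhl1 knockouts, with medians of −0.21, −0.18 and −0.10. Of all tested genes, 51.4, 52.1 and 47.0% were below wild type. These comparisons share 1 wild-type sample, so the 3 counts are not independent. Some of the genes counted were close to 0, such as dis2 at −0.02 in the ifh1 and fhl1 knockouts. Lowest in each was mod5, which anchors the cell-end marker Tea1, at 99.2 FPKM in wild type against 73.5, 73.1 and 85.4. Highest were the Tea1 partner gene tea4 in the sfp1 knockout (0.33), gef2 in the ifh1 knockout (0.24) and nod1 in the fhl1 knockout (0.07), both of which encode node proteins. With the scaling outside ribosomal protein genes 8, 2 and 3 of 14 were below 0, and 10, 10 and 11 were below the shifted median of all genes.

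**Figure D4:**
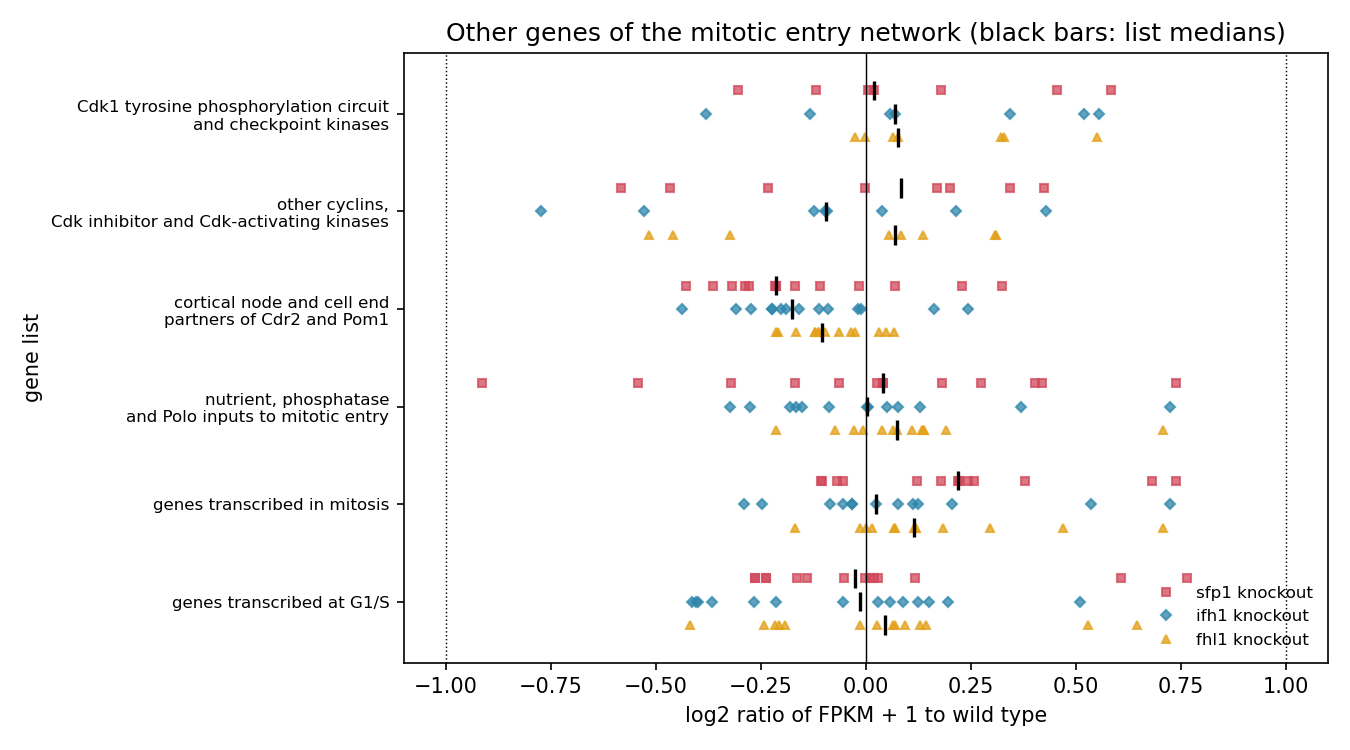
Log2 ratio of FPKM + 1 to wild type for the tested genes of 6 lists of the mitotic entry network, 1 point per gene and knockout, with black bars for list medians and dotted lines at 2-fold. No point reaches 2-fold, and plo1 stands near 0.7 in all 3 knockouts.

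Nutrient, phosphatase and Polo inputs comprised 13 tested genes with medians of 0.04, 0.00 and 0.07. The Polo kinase gene plo1, whose product promotes mitotic entry, was at 35.1 FPKM in wild type, 59.3 without sfp1, 58.7 without ifh1 and 58.0 without fhl1. The 3 knockouts were nearly equal and the wild type was lowest, giving log2 ratios of 0.74, 0.72 and 0.71 from that 1 shared value. With the scaling outside ribosomal protein genes the ratio in the ifh1 knockout was 1.02, or 0.74 above the shifted median of all genes. At the other end, the stress kinase kinase gene wis1 was at 169.8 FPKM in wild type and 89.6 without sfp1 (−0.91), with 140.0 and 146.2 in the ifh1 and fhl1 knockouts. In the ifh1 knockout the lowest of this list was ppk18, a Greatwall family kinase gene (−0.32), and in the fhl1 knockout wis1 (−0.21).

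Genes that peak in single phases of the cycle were read as well, because a bulk sample holds cells of all phases: fewer cells in a phase and less RNA per cell cannot be told apart. Genes transcribed in mitosis (13 tested) had medians of 0.22, 0.02 and 0.12 in the knockouts of sfp1, ifh1 and fhl1, with 9, 7 and 11 above 0, where 48.5, 47.6 and 52.9% of all tested genes were above 0. With the scaling outside ribosomal protein genes 13, 13 and 12 were above 0, and 9, 7 and 9 above the shifted median of all genes. After plo1 came spo12, a gene model of 273 bp, at 0.68, 0.54 and 0.47, while rng2 (−0.11), imp2 (−0.29) and klp6 (−0.17) were lowest in the 3 knockouts in turn. Those transcribed at G1/S (14 tested) had medians of −0.03, −0.01 and 0.05, or −0.11, −0.09 and −0.07 with quantile normalization. Among them the replication licensing genes cdt1 (23.2, 40.2, 26.8 and 36.9 FPKM in wild type and without sfp1, ifh1 or fhl1) and cdc18 (18.7, 29.1, 27.1 and 27.5 FPKM) were highest. The lowest were nrm1 in the sfp1 knockout (−0.26), cdc22 in the ifh1 knockout (−0.41) and yox1 in the fhl1 knockout (−0.42). How far the phase makeup of each culture bears on the 7 genes was not tested.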

How the data were processed

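The deposited file is a table in which the authors give, per gene model and genotype, an FPKM value and its lower and upper bounds. Its name mentions 2 replicates, and the way they were combined is not stated. TopHat2 2.0.9 and Cufflinks 2.1.1 are named in the submitters' processing notes, with no role; genome build and annotation are not stated. The crf1d columns belong to the ifh1 knockout, whose gene has crf1 as its synonym in the reference gene table (ASM294v3). Of 5129 gene models, 5111 were found there and 4955 had the same coding boundaries; lengths were coding lengths.

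Values were compared as log2(FPKM + 1) over genes whose mean reached 1 FPKM (the deleted genes included), with a 2-fold limit, in Python 3.11.15 with pandas 2.3.3. A fold on this scale understates the change of low genes. With 1 sample per genotype no test was made. The depth is unknown. The calculation was tested on simulated data with changes set beyond 2-fold. That checks the code, not changes as small as those of the members. Members and lists were chosen with earlier results of these data known. All 7 members are named; of each list the highest and lowest gene in each knockout are named, and others in addition after their values were seen. Lists were matched by current symbol, which left myo3 unmatched; 1 further list is not reported here. Pseudocount, scaling, expression minimum, gene length and midpoints of the bounds were varied.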

Additional observations from a re-analysis of the deposited data

How the results depend on the processing

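Under 9 alternatives, none of the 378 recomputed log2 ratios of the 7 genes reached 2-fold; the largest was 0.75, for cdc2 in the ifh1 knockout with scaling to the sum of FPKM outside 136 cytosolic ribosomal protein genes. That scaling turned the sign of 8 of the 21 ratios to wild type (as deposited, none of these was beyond 0.21 either way), and quantile normalization that of 2, cdc25 and pom1 in the fhl1 knockout. With the other alternatives no ratio to wild type turned. Among them, no expression minimum, a mean of at least 10 FPKM and genes of at least 300 bp change only which genes are tested. A member's ratio cannot move under these settings, so their part of the 378 values repeats the ratios as deposited. Members lowest in the ifh1 knockout were 5 as deposited, beside 31.0% of all tested genes. They were 5 with the median of ratios (27.5% of all tested genes) and 5 with quantile normalization (26.1%). With midpoints of the bounds they were 6 (27.3%), and with the scaling outside ribosomal protein genes 1 (11.3%). These alternatives were chosen after seeing the data.

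Counts of all tested genes at least 2-fold apart moved by over 1.5 times in few cases. In the fhl1 knockout against wild type the count was 166 as deposited, 109 with a pseudocount of 5 FPKM and 107 with a mean of at least 10 FPKM. In the ifh1 knockout against wild type it was 211 as deposited and 131 with quantile normalization. In the ifh1 against the fhl1 knockout it was 86 as deposited, 50 with midpoints of the bounds and 48 with genes of at least 300 bp. The limits of 10 FPKM and 300 bp leave every ratio as it was and only remove genes from the count. For the other settings the cause was not tested. With midpoints of the bounds, places in the order of levels changed for 2 genes in wild type and 2 in the sfp1 knockout. No paired analysis was possible because each genotype has 1 sample. The width of the bounds limits what these values can show: for every member they allow a log2 ratio to wild type well to either side of 0.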
